A study of Rattus norvegicus with 18 samples.

Results

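The genes described here encode the parts that carry a signal from a receptor to cyclic nucleotides and back: heterotrimeric G protein subunits, the regulators that switch them off, adenylyl cyclases, phosphodiesterases and the subunits of protein kinase A. Members were all probe sets of the array whose single gene symbol started with Gna, Gnb, Gng, Rgs, Adcy, Pde, Prkac or Prkar. Adcyap1, Adcyap1r1 and Gnb2l1 share these letters but are a peptide, its receptor and a scaffold protein, and were left out. The rule gave 79 probe sets of 53 genes, out of 8799 probe sets on the array and 4736 genes named there. It also left out 2 probe sets that carried a second gene symbol, one for Gnai1 with Gnai3 and one for Pde11a.

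A receptor that binds its ligand loads GTP onto a G protein alpha subunit, which then parts from the beta and gamma subunits. Alpha subunits of the Gs class stimulate adenylyl cyclase and those of the Gi class inhibit it, while free beta-gamma pairs act on ion channels and on some cyclases. RGS proteins speed up GTP hydrolysis and so end the signal. Cyclic AMP releases the catalytic subunits of protein kinase A from its regulatory subunits, and phosphodiesterases degrade cyclic AMP and cyclic GMP. In the suprachiasmatic nucleus (SCN), a pair of hypothalamic nuclei that serve as the central circadian pacemaker, vasoactive intestinal peptide signals between neurons through a Gs-coupled receptor, and cyclic AMP acts on clock genes through the CRE element of their promoters.

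The tissue was SCN of adult male Long-Evans rats that had been kept in alternating light and dark and were then left in constant darkness. Sampling began at the first projected lights-on, called circadian time (CT) 0, and was repeated every 6 h, so that the 8 time points analysed here were 0, 6, 12, 18, 24, 30, 36 and 42 h and each of CT 0, CT 6, CT 12 and CT 18 was sampled on 2 days. Tissue was extracted from single rats and the RNA of the 5 rats of a time point was pooled, which leaves 1 pool per time point and 2 pools of different rats per phase. The pools were hybridised to the rat U34A GeneChip in a technical repeat of 8 arrays, 1 for each time point, and in a first run of 10 arrays, in which 24 h and 36 h each had an array a and an array b. No group differed in genotype or treatment, and there was no untreated or light-exposed control. The immortalised SCN cells named in the title of the study were not analysed here.

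The authors deposited an intensity for every probe set on each array, on a linear scale. A pool's value is the mean of both runs on the log2 scale, given here as an intensity. Intensities of different probe sets depend on their probes and are not amounts of RNA that can be set against each other. Array medians lay between 107.9 and 127.6 in the technical repeat and between 136.5 and 152.3 in the first run. The trimmed mean, taken without each array's extreme values, was 499.3 to 500.0 on every array. The medians thus differed at a common trimmed mean. The array's 59 control probe sets were bright on 3 first-run arrays, those of 12 h, 18 h and 36 h b, with mean intensities of 1421, 1874 and 2210, against 556 to 1090 on the other 15. Of the markers of SCN neurons, Avp and Sst were above the level filter (mean intensities 1732 and 5541), whereas Vip and Rorb were dim, at 49.0 and 17.5. Since the tissue is a mixture, fewer cells of a type and less RNA per cell cannot be told apart.

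Tests were limited to probe sets with a mean intensity above 121, the median of all non-control probe sets. Of the 79 member probe sets, 49 passed, from 38 of the 53 genes, a share of 62% against 50% of all probe sets by construction. The families differed in how many members were bright enough. Gng had 7 of 8 probe sets above the filter, Gnb 6 of 8, Prkac and Prkar 3 of 4 each, Gna 12 of 17, Rgs 7 of 10, Adcy 4 of 9 and Pde 7 of 19.

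Among the alpha subunits, the 4 probe sets of Gnas, which encodes the stimulatory alpha subunit of most tissues, had mean intensities of 25950, 14380, 10810 and 2298. The 3 probe sets of Gnai2, an inhibitory alpha subunit, stood at 4790, 4338 and 1389, and those of Gnao1, the alpha subunit of Go in neurons, at 1767 and 527. Gnaz, a pertussis-toxin-insensitive inhibitory subunit, had 468 on its brighter probe set. Gnai1 (117), Gnat3 of taste cells (23.2) and Gnal, the stimulatory subunit of olfactory and striatal neurons (16.0), lay below the filter. Gnal was at the floor of 12.1 in the pools of 0, 6 and 24 h.

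Of the beta and gamma subunits, the brightest probe sets were those of Gnb1 (7796), Gng10 (2450) and Gng5 (2034), and Gnb3 of photoreceptors stood near the floor (14.1). The 10 probe sets of the regulators of G protein signalling had means between 12.3 and 363. Rgs14, which also binds inactive Gi alpha subunits, had 363. Rgs8 had 278 and Rgs4, which acts on Gi and Gq alpha subunits, 134. Adcy2, a cyclase stimulated by beta-gamma pairs, had 3151 and Adcy3, a cyclase of olfactory neurons and cilia, 465. Adcy6 and Adcy5, cyclases inhibited by calcium, had 229 and 122, while Adcy8, which calcium and calmodulin stimulate, was below the filter at 79.1. The runs differed for Adcy8, which read 19.8 to 88.9 over the pools in the technical repeat and 104 to 147 in the first run.

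Among the phosphodiesterases, the brightest probe set was one of Pde4b, a cyclic AMP-specific enzyme, at 4510. The other 3 probe sets of Pde4b had means of 89.5, 38.3 and 36.2, so the gene's level depends on which probe set is read. Pde1b, a calcium-calmodulin-dependent enzyme, had 158, and Pde2a, which cyclic GMP stimulates, was below the filter at 74.0. That mean joins unlike runs: Pde2a read 13.5 to 48.1 over the pools in the technical repeat and 143 to 340 in the first run. Both probe sets of Pde4d (77.0 and 13.6) and of Pde5a (18.7 and 16.4) lay below the filter too. Of protein kinase A, the regulatory subunits Prkar1b and Prkar1a had 9973 and 1488 and Prkar2a 321, with Prkar2b below the filter at 55.5. The catalytic subunits Prkacb and Prkaca had 5698 and 613 on their brighter probe sets. Gnaq, Adcy1, Pde10a, Rgs2, Rgs7 and Rgs16 were not analysed here.

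**Figure D1:**
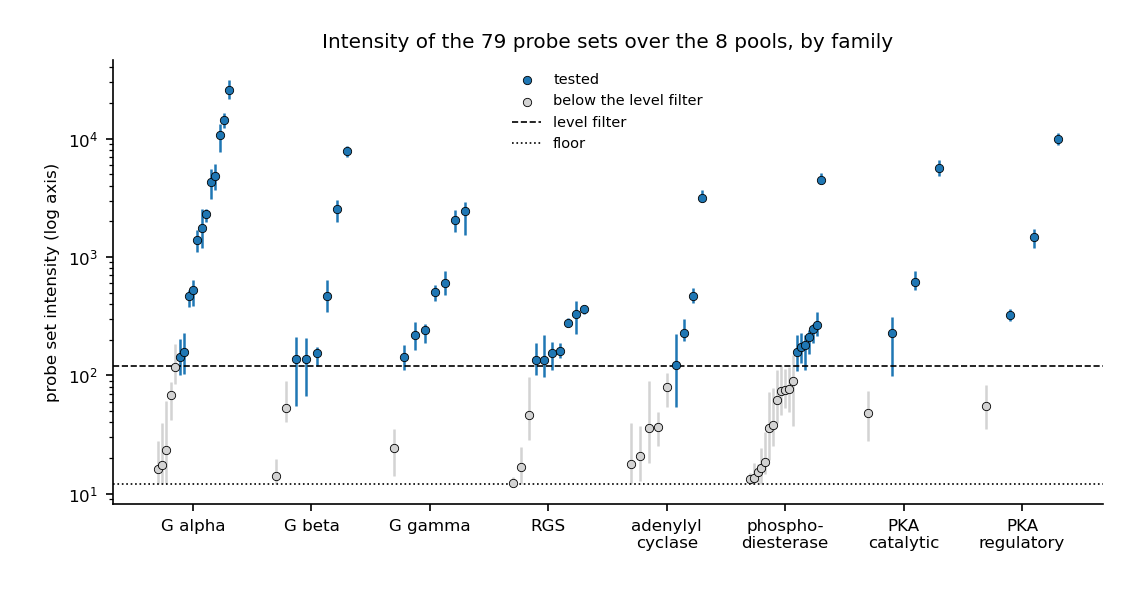
Mean intensity of each of the 79 member probe sets (points, log axis) in the 8 gene families, with the lowest and highest pool as a vertical line and the level filter of 121 marked. Means range from 12.3 to 25950, and most Pde probe sets lie below the filter while most Gng and Gnb probe sets lie above it.

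The first comparison asks which of these genes followed a 24 h rhythm over the 2 days. None of the 49 tested probe sets was called. A cosine and a sine of 24 h were fitted to the 8 pools with limma, and the amplitude is the height of the fitted peak above the fitted mean on the log2 scale. By limma's moderated F test with Benjamini-Hochberg adjustment, 0 of 49 members passed an adjusted p under 0.05, as did 0% of all 4370 tested probe sets, and 0 of 49 had an unadjusted p under 0.05, against 6.36% of all. The median amplitude was 0.13 over the members and 0.16 over all tested probe sets. Fitted peaks lay nearest to CT 0, CT 6, CT 12 and CT 18 in 12, 9, 15 and 13 members.

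The fits leave room for rhythms of a size that the design would often miss. Pools were simulated with normal noise at limma's moderated spread, with 100 probe sets given an amplitude of 0.5 and 100 an amplitude of 1. Of these, 44% and 99% were called. Changing so many probe sets at once eases the adjusted threshold, so these shares may be too high for the real pools. Leaving out the pool of 18 h put 5 members at an unadjusted p under 0.05, leaving out 12, 24, 30, 36 or 42 h put 1 or 2 there, and leaving out the 3 arrays with bright controls put 3 there. The number of members called after adjustment was 0 in each of these fits. For them the share over all tested probe sets at an unadjusted p under 0.05 is not given, so the counts do not set the members apart.

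The member with the smallest p was Gng11, a gamma subunit, with intensities of 255, 247, 162, 227, 283, 208, 216 and 187 at 0, 6, 12, 18, 24, 30, 36 and 42 h. It was highest in both CT 0 pools and lowest in the CT 12 pool of the first day, and its amplitude was 0.27 ± 0.10 (SE, n = 8 pools, limma adjusted p = 0.759). Adcy6 had 297, 233, 220, 225, 268, 212, 193 and 199 at the same times. Both of its CT 0 pools were above the other 6, and its amplitude was 0.23 ± 0.09 (SE, n = 8, limma adjusted p = 0.775). When the 8 pools were rearranged over the times in an exact permutation test, taken one-sided on the amplitude and with a smallest reachable p of 0.00317, the p was 0.0413 for Adcy6 and 0.0984 for Gng11. These were the smallest of 8 genes so tested, which had themselves been picked by p, and the highest was 0.454 for Gnb5.

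Pde6d, a chaperone for prenylated proteins that shares its name with the photoreceptor phosphodiesterase, had 212, 218, 112, 183, 192, 176, 171 and 198 over the 8 times. Its amplitude of 0.27 ± 0.12 (SE, n = 8) was 0.11 without the low pool of 12 h. Gnai2 had 4044, 4710, 6163, 5355, 4247, 5374, 5231 and 3695 on its brightest probe set, which fitted a peak at CT 10.6 of amplitude 0.24 ± 0.11. Pde4c, another cyclic AMP-specific phosphodiesterase, had 217, 254, 301, 228, 256, 228, 345 and 332, which fitted a peak at CT 13.6 of amplitude 0.25 ± 0.11. All 3 had a limma adjusted p of 0.775.

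Gna12, another alpha subunit, had a fitted peak at CT 8.86 of amplitude 0.31 ± 0.15 (SE, n = 8). Gnb5, the beta subunit that pairs with RGS proteins such as Rgs9, one at CT 23.5 of amplitude 0.42 ± 0.22. Neither passed (limma adjusted p = 0.781 and 0.788). Gnb5 was lowest at 36 h, at 55.1, against 116 to 211 in the other 7 pools, and without that pool its amplitude was 0.08. Within that pool the technical repeat read 22.0 and the first run 138.

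**Figure D2:**
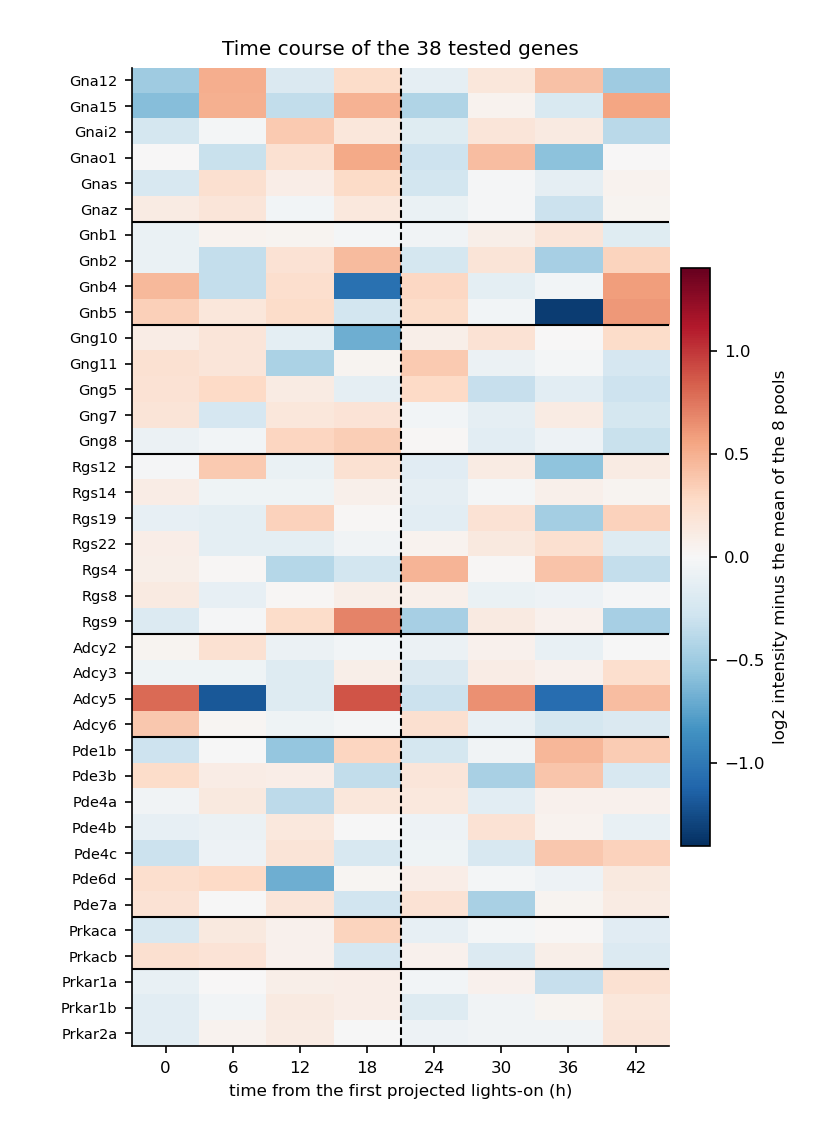
Log2 intensity of the brightest probe set of each of the 38 tested genes at the 8 time points, minus the gene's mean over the 8 pools (red above, blue below), with genes grouped by family and a dashed line between the days. Most cells are pale, and the deepest blue are Gnb5 at 36 h, Gnb4 at 18 h and Adcy5 at 6 h and 36 h.

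Among the 49 tested probe sets, Adcy5 varied most. Its brightest probe set had 211, 53.6, 108, 224, 98.8, 190.1, 58.3 and 164 at 0, 6, 12, 18, 24, 30, 36 and 42 h. These swings did not keep to one phase. Of the CT 6 pools one was the lowest of all 8 and the other among the 3 highest, and of the CT 0 pools one was high and one low. The same pools were high and low in both runs: the technical repeat had 149, 53.0, 96.9, 168, 111, 149.8, 52.8 and 148, and the first run 298, 54.1, 120, 299, 88.3, 241, 64.3 and 182. The SD between pools was 0.82 on the log2 scale, 3.75 times the SD expected of a pool's mean from the differences between the runs. It was the only one of the 49 tested members (2.04%) in which that ratio exceeded 2, against 5.22% of all tested probe sets. Gnat3, below the level filter, had an SD of 0.88 and a ratio of 3.53. The ratio also exceeded 2 below the filter for Adcy10 (2.41) and for the dimmer probe sets of Gnaz (2.79) and Gnb5 (2.18). The rhythm fit of Adcy5 gave an amplitude of 0.63 ± 0.29 (SE, n = 8, limma adjusted p = 0.775, exact permutation p = 0.387), and the amplitude was 1.00 without the pool of 30 h. The other 2 Adcy5 probe sets were dim, with means of 36.9 and 17.9. They lay at 49.2 and 14.8 at 6 h, against 32.1 and 12.3 at 0 h. The dimmer one was already near the floor of 12.1 at 0 h, so it could not show a drop. The other read 36.5 at 0 h and 83.6 at 6 h in the first run, and 28.2 and 28.9 in the technical repeat. It did not fall in either run, but its SD expected from array error was 0.42 on the log2 scale. Drd1 and Adora2a, receptors of striatal neurons, in which Adcy5 is the main cyclase, had mean intensities of 336 and 199, Drd2 was dim at 40.1, and the 3 measured markers summed to 493 to 635 over the pools. Their part in the Adcy5 values was not tested.

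Over the members as a whole, pools differed about as much as the runs allow. The median SD between pools was 0.237 on the log2 scale and the median SD expected from array error 0.229, against 0.234 and 0.213 over all tested probe sets. The spread between pools exceeded the array error in 27 of 49 members (55.1%), against 58.5% of all.

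**Figure D3:**
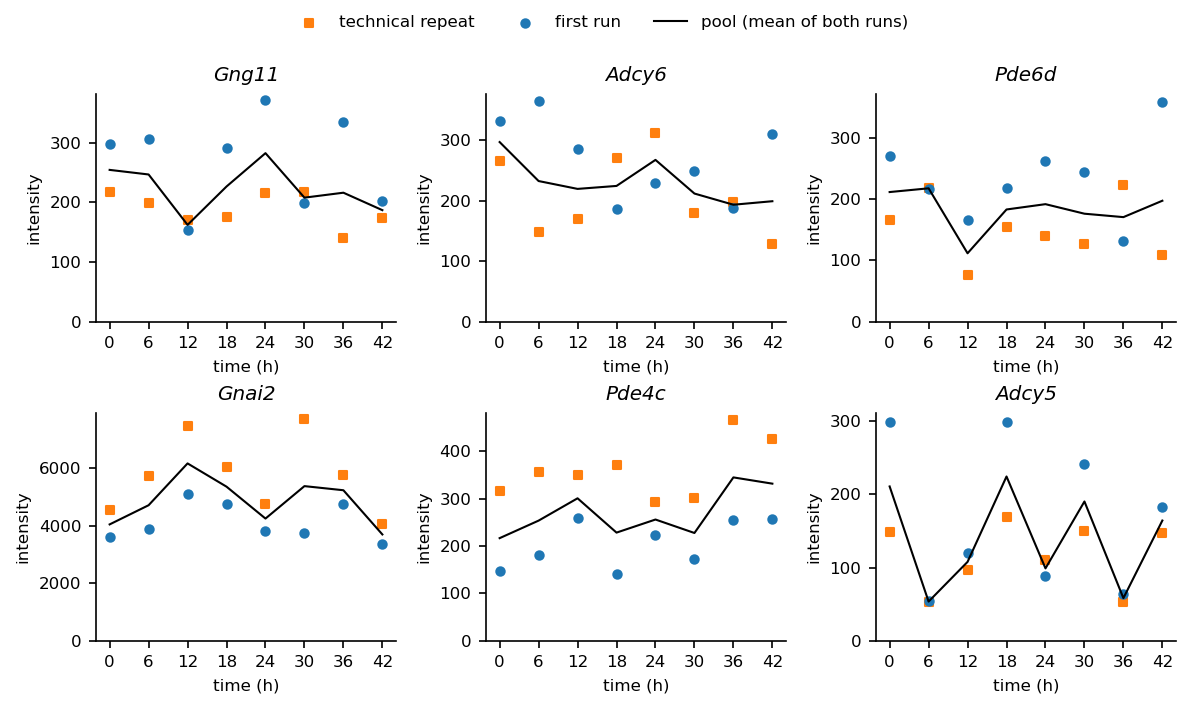
Intensity at the 8 time points in the technical repeat (squares) and in the first run (circles), with the pool value as a line, for the brightest probe sets of Gng11, Adcy6, Pde6d, Gnai2, Pde4c and Adcy5. The runs trace the same zigzag for Adcy5, with lows of 52.8 to 64.3 at 6 h and 36 h, whereas for Adcy6 and Pde6d the squares and circles lie far apart at single times.

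The second comparison sets CT 12, the end of the subjective day, against CT 0, its start. No member was called, and 3 of the 49 had an unadjusted p under 0.05, all lower at CT 12: Gng11, Adcy6 and Pde6d. With limma and Benjamini-Hochberg adjustment, 0 of 49 members and 0% of all probe sets passed. At an unadjusted p under 0.05, 3 of 49 lower and 0 of 49 higher stood against 4.49% lower and 4.19% higher of all, and 8.67% in either direction. The median difference was 0.03 over the members and 0.01 over all. Both pools of one phase lay beyond both of the other in 27 members (55.1%, 14 of them higher at CT 12 and 13 lower), against 44.8% of all tested probe sets.

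Gng11 had 162 and 216 at CT 12, against 255 and 283 at CT 0. The phases did not overlap, and the log2 difference was -0.52 ± 0.21 (SE, 2 pools per phase, 95% interval -0.97 to -0.06, limma adjusted p = 0.559). Adcy6 had 220 and 193 at CT 12, against 297 and 268 at CT 0, again without overlap, a difference of -0.45 ± 0.19 (limma adjusted p = 0.559). Pde6d had 112 and 171 at CT 12, against 212 and 192 at CT 0, a difference of -0.55 ± 0.24 (limma adjusted p = 0.569). Its difference was -0.17 on the second day and -0.92 on the first, where the Gng11 differences were -0.39 and -0.65 and those of Adcy6 -0.47 and -0.44. Without the pool of 12 h the Pde6d difference was -0.22. First-run values at 24 h and 36 h averaged arrays a and b. For Adcy6 these read 371 and 142 at 24 h, and 336 and 106 at 36 h. Pde6d read 343 and 200, then 377 and 45.5, and Gng11 434 and 317, then 348.5 and 323. All 3 kept a negative difference in each run, at -0.49, -0.65 and -0.24 in the technical repeat and -0.55, -0.25 and -0.85 in the first run for Gng11, Adcy6 and Pde6d. The runs read the same pools and the genes were picked on the mean of both, so the shared sign is not independent evidence. The phases of each gene overlapped in a single run. In the first run Gng11 had 335 at 36 h, against 298 at 0 h. Adcy6 had 285 at 12 h there, against 229 at 24 h. In the technical repeat Pde6d had 223 at 36 h, against 166 at 0 h and 141 at 24 h.

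Gnai2 and Pde4c differed the other way without passing. Gnai2 had 6163 and 5231 at CT 12, against 4044 and 4247 at CT 0, a difference of 0.45 ± 0.21 (SE, 2 pools per phase, limma adjusted p = 0.569). A second Gnai2 probe set gave 0.47 ± 0.25 and the third -0.24 ± 0.21, so the 3 probe sets of the gene did not share a direction. Pde4c had 301 and 345 at CT 12, against 217 and 256 at CT 0, a difference of 0.45 ± 0.22 (limma adjusted p = 0.573). On first-run arrays a and b, the brightest Gnai2 probe set read 2871 and 5023 at 24 h, and 3409 and 6625 at 36 h. Pde4c read 152 and 327, then 224 and 292. Gnb5 (-0.84 ± 0.45), Adcy5 (-0.86 ± 0.57) and Rgs9, a regulator of photoreceptors and striatum (0.49 ± 0.32), had larger spreads and limma adjusted p between 0.605 and 0.678. These differences turned on single pools. Without the pool of 36 h the difference was -0.11 for Gnb5 and -0.36 for Adcy5, which had -1.45 without 24 h, and Rgs9 had 0.30 without 24 h.

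By family, the counts of probe sets higher and lower at CT 12 were 8 and 4 for Gna, 2 and 4 for Gnb, 4 and 3 for Gng, 3 and 4 for Rgs, 1 and 3 for Adcy, 4 and 3 for Pde, 2 and 1 for Prkac and 2 and 1 for Prkar. The brightest Gnas probe set differed by 0.22 ± 0.21, Prkar1b by 0.24 ± 0.16, Prkacb by -0.07 ± 0.21, Adcy2 by -0.07 ± 0.17 and Pde4b by 0.19 ± 0.17 (SE, 2 pools per phase), and none passed. The difference had the same sign on both days in 35 of the 49 members (71.4%), against 61.4% of all tested probe sets, and the same sign in both runs in 27 (55.1%), against 59% of all. Simulated differences of 0.5 were called in 2% and of 1 in 55% of cases, so a difference of the size seen for Gng11 was hardly detectable with 2 pools per phase. As for the rhythm, many probe sets were changed at once, so these shares may be too high. The number of members at an unadjusted p under 0.05 changed when single pools were left out. For those fits the share over all tested probe sets is not given.

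**Figure D4:**
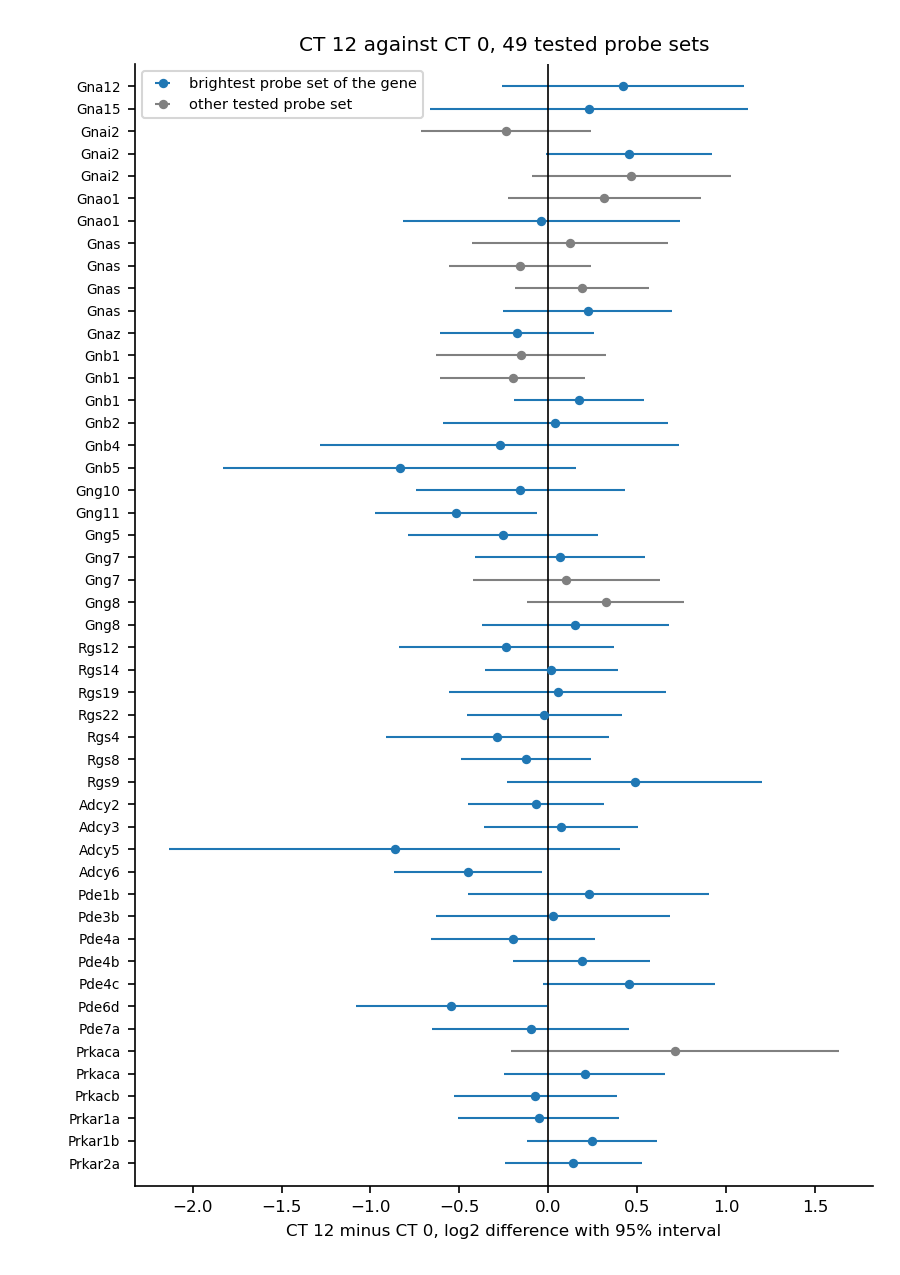
Log2 difference of CT 12 minus CT 0 for the 49 tested probe sets, with 95% intervals (limma), by family from the alpha subunits at the top to the regulatory subunits of protein kinase A at the bottom. Blue marks the brightest probe set of a gene and grey its other tested probe sets. Only the intervals of Gng11, Adcy6 and Pde6d lie wholly below 0, none lies wholly above it, and probe sets of Gnai2, Gnas and Gnb1 fall on both sides.

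The promoters of the members were read for the sequence through which cyclic AMP acts. RefSeq (GRCr8) gave the 250 bases before the start of 39 of the 53 member genes. Motifs were searched on both strands: the full CRE (TGACGTCA), its half-site (TGACG, which lies within the full CRE) and the E-box (CACGTG), to which the clock's activators bind. The full CRE was in 1 of 39 member promoters (2.56%), against 1.7% of 27457 promoters of the same length. The half-site was in 8 (20.5%), against 19% of all, and the E-box in 4 (10.3%), against 5.79% of all. The sequences below are shown because Gng11 and Gnb5 had the smallest p at CT 12 against CT 0 among the genes with a promoter here, and Gnao1 held the 1 full CRE. They are written 5′ to 3′ in the direction of the gene, with matches to the half-site, the full CRE or the E-box, on either strand, in capitals.
Gng11, chr4:32977431-32977680, + strand: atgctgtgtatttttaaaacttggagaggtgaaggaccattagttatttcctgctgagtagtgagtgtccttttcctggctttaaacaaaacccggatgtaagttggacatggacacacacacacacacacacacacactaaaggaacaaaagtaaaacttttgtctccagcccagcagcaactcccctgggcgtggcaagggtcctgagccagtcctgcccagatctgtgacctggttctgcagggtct
Gnb5, chr8:84956379-84956628, + strand: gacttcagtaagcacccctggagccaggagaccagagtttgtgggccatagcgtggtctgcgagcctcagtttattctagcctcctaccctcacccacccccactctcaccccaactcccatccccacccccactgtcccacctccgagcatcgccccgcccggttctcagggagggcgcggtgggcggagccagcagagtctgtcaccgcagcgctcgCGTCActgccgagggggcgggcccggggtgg
Gnao1, chr19:11198438-11198687, - strand: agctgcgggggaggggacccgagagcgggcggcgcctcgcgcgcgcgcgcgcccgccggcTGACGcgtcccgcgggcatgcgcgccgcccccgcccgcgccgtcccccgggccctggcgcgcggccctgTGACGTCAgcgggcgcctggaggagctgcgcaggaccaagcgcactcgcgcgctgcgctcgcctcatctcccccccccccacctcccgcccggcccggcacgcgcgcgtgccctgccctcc
None of these letters occurs in the window of Gng11, and Gnb5 holds the half-site once, on the opposite strand. Gnao1 holds the full CRE and a separate half-site, and its brightest probe set differed by -0.04 ± 0.35 (SE, 2 pools per phase) at CT 12 relative to CT 0. That probe set had -0.46 in the technical repeat and 0.38 in the first run, and the other Gnao1 probe set differed by 0.31. A match is a description of the sequence only.

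The third comparison sets CT 6, the middle of the subjective day, against CT 18, the middle of the subjective night. No member was called and none had an unadjusted p under 0.05. With limma and Benjamini-Hochberg adjustment the counts were 0 of 49 members, against 0.0229% of all tested probe sets (1 probe set), and 0 of 49 at an unadjusted p under 0.05, against 4.26% of all. The median difference was -0.03 over the members and -0.02 over all, and both pools of one phase lay beyond both of the other in 13 members (26.5%), against 31.4% of all. The 8 genes with the smallest p had limma adjusted p of 0.968.

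Adcy5 had the largest difference, -0.93 ± 0.57 (SE, 2 pools per phase), with 53.6 and 190.1 at CT 6 and 224 and 164 at CT 18, which overlap. It was -0.35 without the pool of 6 h and -1.81 without that of 30 h. Gnb2, a beta subunit, had 371 and 533 at CT 6 and 637 and 584 at CT 18, a difference of -0.46 ± 0.28 without overlap. Without the 3 first-run arrays with bright controls, the Gnb2 difference was 0.06, and without the pool of 30 h it was -0.78. Gng10, a gamma subunit, had 2761 and 2829 at CT 6, against 1526 and 2933 at CT 18, a difference of 0.40 ± 0.26, which was 0.02 without the low pool of 18 h and 0.77 without that of 42 h. Gna12 (0.45 ± 0.31) and Pde1b (-0.36 ± 0.31) had differences of -0.19 and 0.07 in the first run alone, and Gna12 had 0.23 without the pool of 6 h and 0.84 without that of 18 h. Rgs4 (0.31 ± 0.28), Prkar1b (-0.17 ± 0.16) and Prkacb (0.21 ± 0.21) completed the list. Without the pool of 42 h the differences of Rgs4 and Pde1b were 0.17 and -0.21, and without that of 30 h that of Prkacb was 0.45. The sign of the difference was the same on both days in 22 of 49 members (44.9%), against 46.6% of all. Leaving out the pool of 18, 30 or 42 h put some members at an unadjusted p under 0.05, and leaving out the 3 arrays with bright controls put 4 there. For these fits the share over all tested probe sets is not given.

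The fourth comparison sets the second day in darkness (24 to 42 h) against the first (0 to 18 h), 4 pools each. Again no member was called. By limma with Benjamini-Hochberg adjustment 0 of 49 members and 0% of all probe sets passed, and 0 of 49 members had an unadjusted p under 0.05, against 3.96% of all. The median difference was -0.05 over the members, with 16 higher and 33 lower on day 2, while 50.3% of all probe sets were higher. Of the 12 tested Gna probe sets, 11 had a negative difference, between -0.21 and -0.01, although these probe sets belong to 6 genes and 4 of them read Gnas. Run by run, 9 of the 12 were negative in the technical repeat and 7 in the first run, and over the 49 members the runs shared a sign in 24 (49%), against 48.5% of all. Of the Pde probe sets 5 were higher and 2 lower on day 2, and of Gnb 4 and 2. In 0 of 49 members did the days not overlap, against 1.88% of all. In simulated pools a difference of 0.5 was called in 27% and of 1 in 96% of cases, shares that may again be too high because many probe sets were changed at once.

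Rgs9 had the smallest p, with 97.4, 147, 140.1 and 98.0 on day 2 and 118, 133, 161 and 219 on day 1. The days overlapped, and the difference was -0.37 ± 0.21 (SE, 4 pools per day, limma adjusted p = 0.997, as for every gene named for the days). Gng8, a gamma subunit, had 604, 541, 571 and 482 on day 2 and 566, 582, 738 and 763 on day 1, a difference of -0.26 ± 0.16, and its second probe set gave -0.22 ± 0.13. Gng5 (-0.24 ± 0.16), Gnaz (-0.19 ± 0.14) and Rgs12 (-0.24 ± 0.19), a large RGS protein that also binds inactive Gi alpha subunits, were lower, and Gng10 (0.27 ± 0.18), Rgs4 (0.28 ± 0.19) and Pde4c (0.21 ± 0.15) higher, without passing. Pde4c was at -0.05 without the 3 first-run arrays with bright controls. Without the pool of 30 h or of 42 h, 3 and 1 members had an unadjusted p under 0.05. For these fits the share over all tested probe sets is not given.

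Whether the rhythm changed between the days was tested as an interaction of the 24 h terms with day. By limma 0 of 49 members passed, as did 0% of all, and 1 of 49 had an unadjusted p under 0.05, against 3.8% of all. That member was the dimmer Prkaca probe set (unadjusted p = 0.048), which had 233, 284, 199 and 244 over day 2 and 99.2, 247, 312 and 310 over day 1. The low value at 0 h was 266 in the technical repeat and 36.9 in the first run, and CT 12 minus CT 0 was 0.01 in the technical repeat and 1.41 in the first run. The probe set was named after its value was seen.

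The runs read the same pools, and here many members differed. The technical repeat was set against the first run over the 8 pools, with the pool as a block. By limma with Benjamini-Hochberg adjustment, 20 of 49 member probe sets (16 genes) were called, 6 higher and 14 lower in the technical repeat, against 48.4% of all tested probe sets, 20.9% higher and 27.5% lower. The share of members was thus close to that of all probe sets. The median difference was -0.12 over the members and -0.06 over all. The direction of small differences depended on the scaling of the arrays. With each array scaled to the same median the median difference over all probe sets was 0.24 and 18 members were called higher and 8 lower, and with quantile normalization it was 0.03 and the counts were 10 and 11. Of the 20 called members, 13 (10 genes) were called in the same direction under all 3 scalings, 5 higher and 8 lower. Shares over all tested probe sets are given for the deposited scaling only, so these counts do not set the members apart.

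The beta subunit Gnb2 was lower in the technical repeat in 8 of 8 pools, with a lowest, median and highest intensity of 267, 299 and 441, against 432, 694 and 1306 in the first run. The difference was -1.04 ± 0.16 (SE, n = 8 pools, limma adjusted p = 0.000311). Gng8 was lower in 8 of 8 pools, by -0.73 ± 0.12 (limma adjusted p = 0.000498), and Gnao1 in 8 of 8, by -1.32 ± 0.25 (0.00129). Rgs4 was lower in 7 of 8 pools, by -0.92 ± 0.18 (limma adjusted p = 0.00174). All 4 were called lower under each of the 3 scalings.

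Pde4c was higher in the technical repeat in 8 of 8 pools, with 294, 353 and 465 as lowest, median and highest intensity, against 141, 201 and 258 in the first run. The runs did not overlap, and the difference was 0.84 ± 0.13 (SE, n = 8, limma adjusted p = 0.000372). Its other probe set, below the level filter, was lower in 7 of 8 pools. Gnb4 was higher in 7 of 8 pools, by 1.15 ± 0.32 (limma adjusted p = 0.012), and Rgs22 in 6 of 8, by 0.45 ± 0.16 (0.0335). Both held under all 3 scalings.

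Probe sets of Gnai2 went opposite ways between the runs. The brightest and the second differed by 0.46 ± 0.12 and 0.68 ± 0.17 (SE, n = 8, limma adjusted p = 0.00726 and 0.00754), and each was higher in 8 of 8 pools. The third was lower in 8 of 8 pools, with 721, 938 and 1162 as lowest, median and highest, against 1428, 1956 and 4029 in the first run, a difference of -1.17 ± 0.19 (limma adjusted p = 0.000434). All 3 were called in these directions under each scaling.

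**Figure D5:**
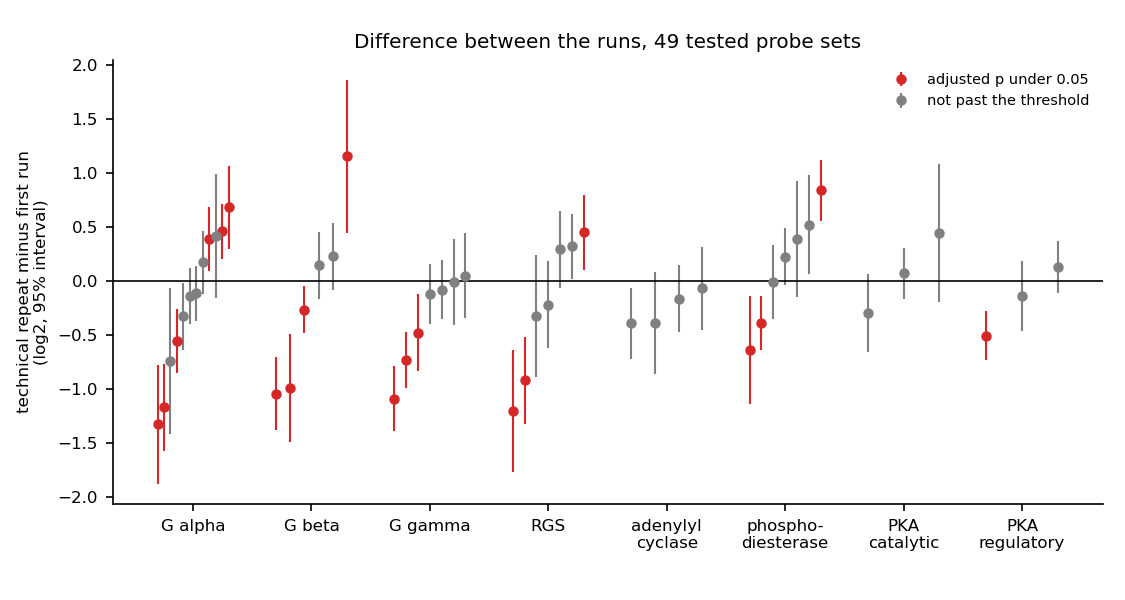
Log2 difference of the technical repeat minus the first run for the 49 tested probe sets by family, with 95% intervals (limma, 8 pools). Red points passed an adjusted p under 0.05 (20 probe sets) and grey ones did not, and the differences run from -1.32 for Gnao1 to 1.15 for Gnb4.

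The array carried 2 or more probe sets for 19 of the 53 genes, 45 probe sets in all. For 9 of the 19 every probe set had the same sign of CT 12 minus CT 0: Gnaz, Gnb5, Gng5, Gng7, Gng8, Pde4c, Pde5a, Prkaca and Prkacb. Signs were mixed for Adcy5, Gna12, Gnai2, Gnao1, Gnas, Gnb1, Pde4a, Pde4b, Pde4d and Rgs8. In 10 genes part of the probe sets lay below the level filter, and of the 7 genes with all probe sets tested 3 had 1 sign throughout (Gng7, Gng8 and Prkaca). The 3 probe sets of Adcy5 lay between -0.86 and 0.68, and those of Rgs8 at -0.12 on the brighter and 1.19 on the dim one. A difference quoted for a gene is therefore that of 1 probe set.

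Genes that act with the members were read from a list of 52 partners, which held G protein-coupled receptor kinases, arrestins, cyclic AMP-binding exchange factors, anchoring proteins, guanylyl cyclases, phospholipases and CRE-binding factors. Of the 52, 38 were measured and 17 tested. By limma 0 of 17 passed in any of the 4 comparisons over time, and 1, 3, 0 and 1 had an unadjusted p under 0.05 for the rhythm, CT 12 against CT 0, CT 6 against CT 18 and day 2 against day 1, where the shares over all tested probe sets were 6.36%, 8.67%, 4.26% and 3.96%. The median difference at CT 12 relative to CT 0 was 0.13, with 12 higher and 5 lower, against a median of 0.01 and 51.1% higher over all. Grk6, a receptor kinase, had 1029 and 995 at CT 12, against 705 and 746 at CT 0, a difference of 0.48 ± 0.16 (SE, 2 pools per phase, limma adjusted p = 0.514). Ppp1r1a, an inhibitor of protein phosphatase 1 that protein kinase A switches on, had 1148 and 1071 at CT 12, against 636 and 794 at CT 0 (0.64 ± 0.25, limma adjusted p = 0.542), and Npr2, a natriuretic peptide receptor with guanylyl cyclase activity, differed by 0.48 ± 0.18. The phases of Grk6 and Ppp1r1a did not overlap, as in 44.8% of all tested probe sets, and none of the 3 passed.

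Markers of cell types that such a dissection could hold were summed in each pool. Photoreceptor markers, relevant to Gnb3 and to Rgs9, had 3 of 5 genes measured, all below the level filter, with a summed intensity of 121 to 236. Over CT 12 and CT 0, sums lay at 26870 to 29790 and 28150 to 28170 for oligodendrocytes, 15590 to 17110 and 15010 to 15880 for astrocytes, and 877 to 1365 and 1336 to 1459 for pan-neuronal genes. Those of SCN neurons lay at 6426 to 9917 and 6602 to 7147. A sum mostly follows its brightest probe set, here Sst for SCN neurons and Mobp for oligodendrocytes, of which 3 tested markers were higher at CT 12 and 2 lower. Of the 2 tested SCN markers, Avp differed by 0.60 ± 0.20 and Sst by 0.11 ± 0.26 at CT 12 relative to CT 0 (limma adjusted p = 0.514 and 0.921). The 2 measured markers of choroid plexus summed to 198 to 477 over the 8 pools. One of them, Ttr, the carrier of thyroid hormone made by that tissue, had 308 and 305 at CT 6, against 52.3 and 106 at CT 18, a difference of 2.04 ± 0.37 (SE, 2 pools per phase, limma adjusted p = 0.486). The other, Kl, went the opposite way, by -0.20 ± 0.28 (limma adjusted p = 0.972). The vessel marker Kdr, a receptor of vascular growth factor, differed by -0.83 ± 0.31 at CT 12 relative to CT 0 (limma adjusted p = 0.52). Flt1, the other tested vessel marker, went the opposite way, by 0.43 ± 0.25 (limma adjusted p = 0.633). Ttr and Kdr were named after their values were seen. Of the markers tested, limma called 0 in each list in each of the 4 comparisons over time. The part of cell composition in the values above was not tested.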

How the data were processed

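The authors deposited 1 probe set intensity per array on a linear scale. How probes were summarised and arrays scaled is not given in the sources used here, but all arrays shared a trimmed mean of 499.3 to 500.0. Values below the table's 10th percentile (12.1) were set to that floor and transformed to log2. Arrays a and b, assumed to read the same pool, were averaged, then both runs, and the pool was the replicate (n = 8). The labels call the second run a technical replicate. Limma 3.58.1 in R 4.3.3 fitted a 24 h cosine and sine (5 residual degrees of freedom) over 4370 probe sets, and CT 12 minus CT 0 and CT 6 minus CT 18 came from the same fit. A day term, a day interaction and a run contrast on the pools were added. P-values were adjusted over all 4370 (Benjamini-Hochberg, threshold 0.05). In the comparisons over time they measure the spread between pools. In the run contrast they measure how the difference between the runs varied over the pools. The fits were tested on simulated data. Each gene was read by its brightest probe set. Named were the 8 genes with the smallest p in each time comparison, 4 per direction between the runs, a list of main pathway genes and every gene with several probe sets. Members and lists were chosen with earlier results of these data known. Alternatives were other scalings, filters and floors, limma's trend and robust options, single runs, arrays a or b left out, and each pool left out. The number of arrays limits the precision.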

Additional observations from a re-analysis of the deposited data

How the results depend on the processing

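In the 4 comparisons over time, 0 members were called under every alternative run, and the adjusted p of the named genes ranged from 0.416 to 0.999. The number of members at an unadjusted p under 0.05 moved. Here and for the calls between the runs, the share over all tested probe sets is given for the main setting only. For the rhythm (0 in the main setting) it was 1 with quantile normalization or with 4 phases as groups, 3 with median scaling, with no level filter or without the 3 first-run arrays with bright controls (an alternative chosen after seeing the data), 2 in the technical repeat alone, and 0 to 5 without 1 pool. For CT 12 against CT 0 (3) it was 6 with no level filter, 1 with a filter at the 75th percentile or in the first run alone, and 0 to 5 without 1 pool. For CT 6 against CT 18 (0) it was 1 with median scaling, no filter, the 75th percentile, trend and robust, or the technical repeat alone, 4 without the bright-control arrays, and 0 to 5 without 1 pool. For day 2 against day 1 (0) it was 4 with no filter, 1 in the technical repeat alone or without arrays a, b or the bright-control arrays, and 0 to 3 without 1 pool. For the day interaction (1) it was 2 with median scaling or no filter and 0 at the 75th percentile. Differences turned sign for Gna12 (-0.19) and Pde1b (0.072) in the first run alone at CT 6 against CT 18, and, without the bright-control arrays, for Gnb2 (0.063) there and Pde4c (-0.049) between the days. Between the runs, members called higher were 10 with quantile normalization and 18 with median scaling, and members called lower 8 with median scaling. With the filter at the 75th percentile, which tests fewer probe sets, 10 were called (3 higher, 7 lower) and 11 had an unadjusted p under 0.05. The difference of the named genes between the runs was computed 132 times over genes and alternatives, kept its direction in all and missed the threshold in 8. Causes of these changes were not tested. The labels give the pools no replicate numbers. With a day term, which joins pools of the same day, 2 members had an unadjusted p under 0.05 for CT 12 against CT 0 and 0 for CT 6 against CT 18, where the 1 called probe set of all tested was no longer called. With 5 residual degrees of freedom, differences of 0.5 between phases are mostly below what these pools can show, and the fit assumes that a pool left alone at its phase varies like the others.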
